A study of Mus musculus with 4 samples.

Results

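The guanylate-binding proteins are a family of large GTPases, and 9 mouse genes of the family were followed here: Gbp2, Gbp2b, Gbp3, Gbp4, Gbp5, Gbp6, Gbp7, Gbp8 and Gbp9. They were taken by symbol from the 31054 features of the count matrices, and all 9 were found. The data were single-cell RNA counts of mammary tumours from 2 mouse models of triple negative breast cancer, grown from cells injected into the number 4 gland of female mice. The T11-Apobec tumours grew in the strain labelled Balbc and the KPB25Luv tumours in FVB/NJ. In each model 1 library came from untreated tumour and 1 came after 7 days of anti-PD1 (10 mg/kg) with anti-CTLA4 (100 µg), antibodies that block inhibitory receptors of T cells. Therapy began at a tumour diameter of 5 mm, with random assignment, and all 4 groups had the same injection site and dissociation. The labels give no genotype of either tumour line and no number of animals behind a library. The study asked how the tumour, immune and stromal cells of these models differed after checkpoint blockade.

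Guanylate-binding proteins are induced by interferons, above all by interferon gamma, in part through the transcription factor IRF1. The proteins bind GTP, assemble on the membranes of pathogen-containing vacuoles or on bacteria, and help to open them and to start inflammasome signalling. Gbp2 and Gbp5 carry lipid tails that attach them to membranes, Gbp2b is the mouse gene formerly called Gbp1, and the family sits beside the immunity-related GTPases, another interferon-induced group that acts on the same vacuoles.

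Unique molecular identifiers (UMIs, 1 per captured RNA molecule) were summed over the cells of a class and scaled to 1000000 UMIs of that class (CPM). The kit read the 3′ ends of transcripts, so values were not divided by gene length. With 1 library per group there was no replicate error: every interval below is an exact 95% Poisson, binomial or conditional interval that covers counting error only, and no p-value was computed. A gene was called higher or lower at a 2-fold ratio when the libraries of a model together held at least 20 of its UMIs in a class with at least 50 cells in each. Libraries held 5509 to 11304 barcodes and 30369476 to 98475778 UMIs, of which 5041 to 9388 cells were kept, and 88.9% to 97.2% of those fell into 1 of 13 classes by marker genes. Library pairs shared 34 to 125 cell barcodes, at most 1.85% of the smaller library. The cells recovered differed: T cells numbered 2880 in the treated and 406 in the untreated T11-Apobec library, and 3863 against 1198 in KPB25Luv, while tumour cells of T11-Apobec numbered 632 and 4899 and epithelial cells of KPB25Luv 54 and 2533. Values over all cells of a library therefore mix cell make-up with expression, and the results are given by class.

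Gbp5, Gbp7, Gbp3, Gbp2b and Gbp2 lie in that order on chromosome 3 (GRCm38, GENCODE vM21, plus strand). Gbp5 spans 142493978 to 142522344, Gbp7 142530342 to 142550149, Gbp3 142560026 to 142573209, Gbp2b 142594847 to 142619179 and Gbp2 142620602 to 142638008. The other 4 lie on the minus strand of chromosome 5, with Gbp8 at 105014150 to 105139540, Gbp9 at 105077630 to 105139539, Gbp4 at 105115767 to 105139586 and Gbp6 at 105270702 to 105293698. The annotated spans of Gbp4, Gbp8 and Gbp9 overlap on 1 strand, so the split of UMIs among these 3 genes is uncertain. Of the 90-base stretches in the last 500 bases of Gbp6 transcripts, 65.5% also occurred in another gene, Gbp10 among them, and reads from those stretches cannot be assigned to 1 gene. That share was 8.22% for Gbp4, 0.450% for Gbp3 and 0 for the other 6 members.

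The promoters of the chromosome 3 members are shown because all 5 genes were called higher in T11-Apobec tumour cells and macrophages, as the members on chromosome 5 were too. RefSeq (GRCm38.p6) gave 6 promoters for 5 of the members, and entries for Gbp4, Gbp6, Gbp8 and Gbp9 were not used here. The 250 bases before each RefSeq start were searched on both strands for 2 motifs. The letters TTCNNNGAA are a gamma-activated site (GAS). The letters GAAA, any 2 bases and GAAA again are the core of an interferon-stimulated response element (ISRE). Matches are in capitals. The runs are chr3:142496684-142496933 for Gbp5, chr3:142530086-142530335 for Gbp7, chr3:142559794-142560043 for Gbp3, chr3:142594597-142594846 for Gbp2b and chr3:142620413-142620662 for Gbp2, all on the plus strand.
Gbp5: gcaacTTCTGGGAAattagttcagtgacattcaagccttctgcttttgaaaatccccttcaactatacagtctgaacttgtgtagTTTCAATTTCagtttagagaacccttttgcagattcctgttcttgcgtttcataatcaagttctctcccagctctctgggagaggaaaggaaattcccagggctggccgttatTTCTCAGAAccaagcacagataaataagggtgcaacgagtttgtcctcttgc
Gbp7: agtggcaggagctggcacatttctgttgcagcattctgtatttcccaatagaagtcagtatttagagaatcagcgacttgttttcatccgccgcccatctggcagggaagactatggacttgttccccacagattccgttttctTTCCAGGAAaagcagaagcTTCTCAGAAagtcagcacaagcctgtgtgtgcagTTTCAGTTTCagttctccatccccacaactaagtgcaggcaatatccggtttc
Gbp3: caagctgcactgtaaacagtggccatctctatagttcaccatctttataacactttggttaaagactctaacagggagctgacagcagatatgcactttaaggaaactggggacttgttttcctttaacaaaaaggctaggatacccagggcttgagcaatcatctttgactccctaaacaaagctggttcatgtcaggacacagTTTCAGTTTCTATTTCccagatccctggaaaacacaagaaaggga
Gbp2b: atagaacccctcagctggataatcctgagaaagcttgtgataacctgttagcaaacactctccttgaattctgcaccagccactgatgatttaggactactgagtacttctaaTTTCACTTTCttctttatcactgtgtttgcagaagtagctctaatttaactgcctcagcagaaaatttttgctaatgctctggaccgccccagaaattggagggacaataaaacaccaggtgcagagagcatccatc
Gbp2: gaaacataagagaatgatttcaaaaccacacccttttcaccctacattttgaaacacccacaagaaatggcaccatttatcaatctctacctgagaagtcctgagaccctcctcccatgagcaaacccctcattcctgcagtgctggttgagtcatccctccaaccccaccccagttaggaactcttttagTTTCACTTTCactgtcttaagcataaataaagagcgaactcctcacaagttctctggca
The RefSeq starts differ in part from the GENCODE spans given above. By those spans the Gbp5 run lies inside its gene, and the Gbp3 and Gbp2 runs end inside theirs. Each of these 5 runs held the ISRE letters, and Gbp5 and Gbp7 also held 2 GAS matches each. The ISRE match began 165 bases before the start in Gbp5, 53 in Gbp7, 137 in Gbp2b and 59 in Gbp2. In Gbp3, 2 ISRE matches overlapped, beginning 45 and 39 bases before the start. The second RefSeq promoter of Gbp3, not printed, held neither motif. Among 32851 promoters of the same length, 2.98% held the ISRE letters and 7.02% the GAS letters. A match of letters is a description of the sequence and not evidence of binding.

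In the T11-Apobec tumour cells, all 9 members were higher in the treated library. The class was set in the T11-Apobec libraries by a list of 12 mesenchymal and transgene markers, Prrx1, Twist1 and Postn among them, in cells without leukocyte, epithelial, endothelial or stromal marker levels. Of the 12 markers, 7 were at least 2-fold higher in the class than in other cells. None of those markers was among the 10 genes most raised in the class, which Stmn2, Gas1 and Cxcl12 led. The summed members stood at 689 CPM (95% interval 677 to 702, 11244 UMIs in 632 cells) after therapy and at 56.9 CPM (55.1 to 58.8, 3710 UMIs in 4899 cells) without it, a log2 ratio of 3.60 (3.54 to 3.65). All 9 of 9 members tested passed 2-fold upward, where 5.22% of the 12920 genes tested in this class did, and none was lower, against 3.93% of all genes. Their median log2 ratio was 3.73, beside -0.04 over all genes tested. Other genes that moved in this class were T cell markers (Cd3d, Cd3e and Trac summed), at 25.9 against 0.905 CPM, and the immunoglobulin gene Igkc, at 57.9 against 1.44 CPM. Of 11 genes that mark RNA from other cells, which include Col3a1, a marker of this class, 1 was higher and 1 lower. Of 8 quality and handling genes 1, B2m at log2 1.14, was higher and 3, Fos, Hspa1a and Hspa1b, were lower. The part of these in the members' ratios was not tested.

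Among the chromosome 3 members, Gbp2b went from 15.6 to 208 CPM, a log2 ratio of 3.73 (3.63 to 3.84). Gbp2, a lipid-anchored member recruited to pathogen vacuoles, went from 19.1 to 168 CPM, a log2 ratio of 3.13 (3.04 to 3.23). The pair thus supplied more than any other members in these tumour cells, 30.2% and 24.4% of the family's UMIs after therapy. Gbp7 rose from 7.95 to 88.8 CPM (log2 3.48) and Gbp3 from 8.30 to 76.6 CPM (log2 3.20). Gbp5, a partner of the NLRP3 inflammasome in macrophages, stayed scarce in absolute terms at 4.66 CPM against 0.138, with a log2 ratio of 5.01 (4.08 to 6.26) resting on 76 and 9 UMIs. On chromosome 5, Gbp4 moved from 3.27 to 122 CPM, a log2 ratio of 5.22 (5.02 to 5.44), and so from a minor to a major member. Its share of the family's UMIs was 5.74% without therapy and 17.7% with it. Gbp8 stood at 8.58 against 0.384 CPM (log2 4.46) and Gbp9 at 9.26 against 2.07 CPM (log2 2.16). Gbp6 had 49 UMIs after therapy and 2 without, a log2 ratio of 6.31 (4.68 to 9.70).

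Cells of the tumour class differed widely among themselves. At an equal depth of 10000 UMIs per cell, 617 treated and 3199 untreated tumour cells could be compared, and 15 and 1700 shallower cells were left out. No UMI of any member was seen in 19.9% of the treated cells (16.9% to 23.3%) and in 75.3% of the untreated ones (73.8% to 76.8%). At least 5 were seen in 44.7% (40.8% to 48.8%) against 1.75% (1.32% to 2.27%), and at least 20 in 10.9% (8.52% to 13.6%) against 0.188% (0.0689% to 0.408%). The treated class was therefore not raised evenly: the 67 cells with 20 or more UMIs held 45.7% of all the members' UMIs in it. The highest treated cell had 84 UMIs and the highest untreated cell 42, so 6 untreated tumour cells reached 20 UMIs or more. The variance of the summed UMIs across cells was 15.2 times the mean in the treated class and 6.90 times in the untreated class. The means were 7.41 and 0.513 UMIs. This ratio depends on the mean, so it does not tell which class was the more uneven. At the shallower depth of 1000 UMIs, 8.40% of treated and 0.246% of untreated tumour cells had at least 3 UMIs, and the unthinned share of cells with any member UMI was 90.8% against 33.2%, at median depths of 25053 and 12206 UMIs that do not allow a comparison.

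**Figure D1:**
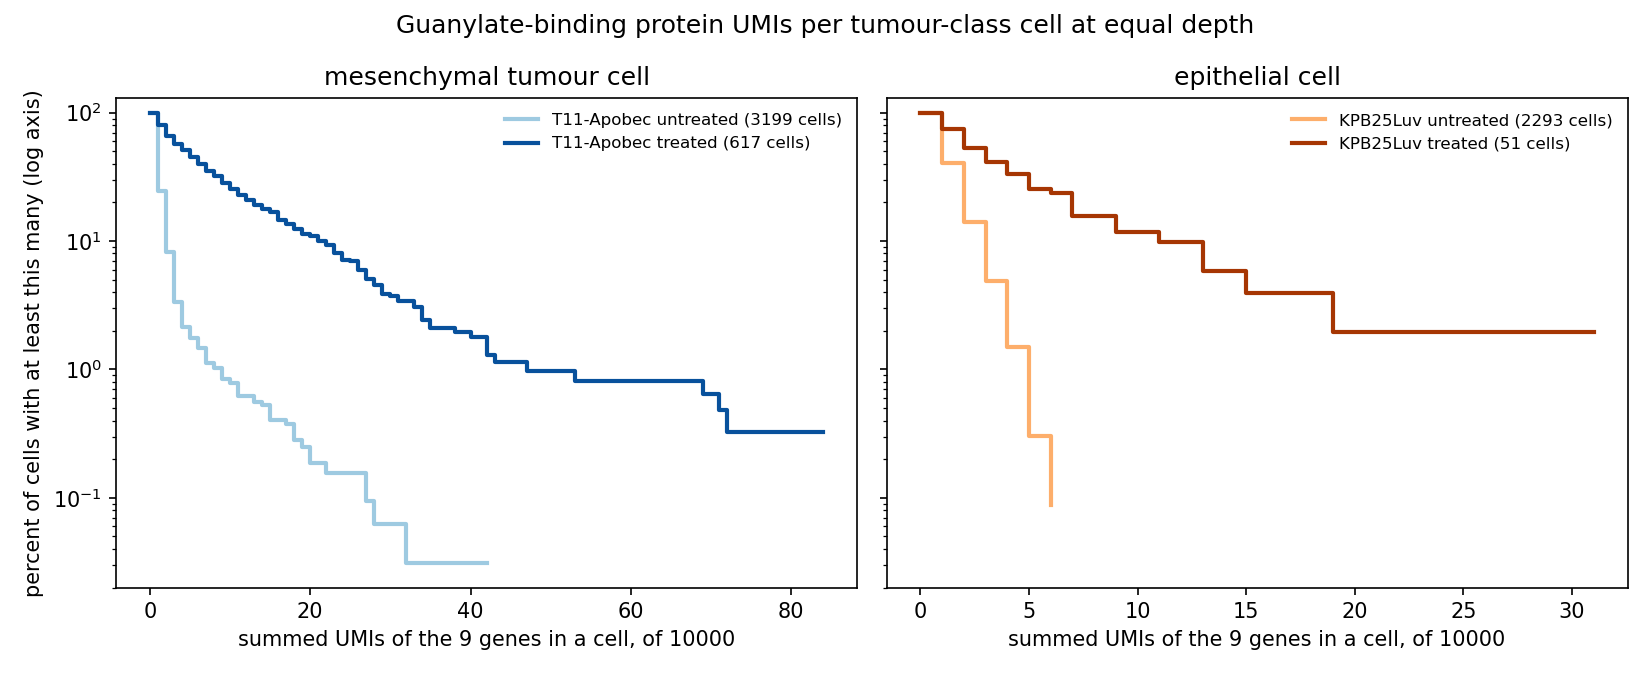
Percent of cells (log axis) with at least a given number of summed UMIs of the 9 genes, each cell thinned to 10000 UMIs, for T11-Apobec mesenchymal tumour cells and KPB25Luv epithelial cells. The treated curves lie above the untreated ones, and the T11-Apobec treated curve runs to 84 UMIs.

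Several members were seen more often in tumour cells that also had a Gbp2 UMI. Of treated T11-Apobec tumour cells thinned to 1000 UMIs, 30.2% of those with a Gbp2 UMI also had a Gbp2b UMI, against 11.6% of those without. For Gbp4 the shares were 21.9% and 6.17%, for Gbp7 15.6% and 7.66%, for Gbp3 15.6% and 6.54%, and for Gbp8 2.08% and 0.748%. Gbp5 and Gbp9 were at 0% with Gbp2 and at 0.187% and 0.748% without, and Gbp6 was not seen at this depth. This was not particular to tumour cells. In treated T11-Apobec macrophages the shares for Gbp2b were 34.8% and 16.9%, while Gbp5, Gbp6 and Gbp8 went the other way. In treated KPB25Luv T cells every other member was seen more often with Gbp2, Gbp7 at 25.2% and 9.42%. Untreated KPB25Luv macrophages, of which 26 had a Gbp2 UMI, went the other way for most members. Gbp7 was at 3.85% with Gbp2 and 8.02% without, and Gbp3 at 0% and 3.62%. Gbp8 was at 7.69% and 0.629% there. In untreated KPB25Luv epithelial cells Gbp9 was at 1.08% with Gbp2 and 0.780% without. Of the 93 such epithelial cells with a Gbp2 UMI, none had Gbp3, Gbp4 or Gbp7, against 0.410%, 0.410% and 1.15% of those without. So few cells cannot tell such shares from 0%. Shares are over cells of 1 library each, and cells are not replicates.

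The KPB25Luv tumour cells fell in the epithelial class, marked by Krt8, Krt18 and Epcam, and the members measured there were higher in the treated library too. The class held only 54 treated cells beside 2533 untreated ones, and the treated cells may include normal mammary epithelium, which the markers do not separate from tumour. The summed members stood at 427 CPM (396 to 461) against 61.3 CPM (59.3 to 63.3), a log2 ratio of 2.80 (2.68 to 2.92). Gbp2, Gbp3, Gbp4, Gbp7 and Gbp9, 5 of 5 members tested, passed 2-fold upward, where 18.4% of the 13083 genes tested did, and none was lower, against 7.81% of all genes. Median-of-ratios scaling shifted the log2 ratios of this class by -0.27, which takes Gbp9 short of 2-fold. Of 8 quality and handling genes 5 were higher and none lower, with Hspa1a at log2 4.09, Fos at 1.59 and Jun at 1.03. Of 11 genes that mark RNA from other cells, which include Krt8 and Krt18 of this class, 2 were higher and 7 lower. The higher were Igkc at 142 against 8.23 CPM and Col3a1 at 257 against 28.1 CPM. Among the lower was C1q, with no UMI against 110 CPM. The part of these in the members' ratios was not tested.

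Gbp3 changed most among the 5, from 4.42 to 104 CPM, a log2 ratio of 4.56 (4.27 to 4.85). Gbp2 went from 33.6 to 234 CPM (log2 2.80) and held 54.9% of the family's UMIs without therapy and 54.8% with it. It was thus the leading member of these epithelial cells in both libraries. Gbp4 stood at 13.8 against 2.45 CPM (log2 2.52) and Gbp7 at 48.3 against 13.4 CPM (log2 1.86). Gbp9 stood at 15.1 against 7.09 CPM, a log2 ratio of 1.11 with an interval, 0.43 to 1.68, that reaches below 2-fold. The other 4 members had fewer than 20 UMIs in both libraries together: Gbp5 had 10 treated and 5 untreated UMIs, Gbp8 5 and 7, Gbp2b 2 and 6, and Gbp6 2 and 0. At 10000 UMIs per cell, no member UMI was seen in 25.5% of 51 treated cells (14.3% to 39.6%) and in 59.6% of 2293 untreated cells (57.5% to 61.6%). At least 5 UMIs were seen in 25.5% of the treated cells (14.3% to 39.6%) and in 0.305% of the untreated (0.123% to 0.628%).

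The T11-Apobec libraries also held a few epithelial cells, 57 treated and 58 untreated. No single member reached 20 UMIs there. Summed, the members stood at 60.9 CPM (42 UMIs) against 24.2 CPM (14 UMIs), a log2 ratio of 1.30 (0.43 to 2.32). With every cell thinned to 1000 UMIs it was -1.11 (-4.69 to 1.31), on few remaining UMIs, so no direction is read from it. Beside the mesenchymal tumour cells of the same library, at 689 CPM, these epithelial cells carried few of the members' UMIs. In this class 11.1% of the 6112 genes tested were higher and 9.85% lower.

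Macrophages and monocytes, which use these proteins against intracellular pathogens, carried more of the members after therapy in both models. In T11-Apobec the summed members stood at 674 CPM (654 to 694, 705 cells) against 131 CPM (124 to 138, 2496 cells), a log2 ratio of 2.36 (2.27 to 2.45). All 9 of 9 members tested passed 2-fold upward, where 4.64% of the 10877 genes tested did, and none was lower, against 4.81%. The median log2 ratio was 2.88 for the members and -0.07 for all genes tested. In KPB25Luv the sum stood at 956 CPM (879 to 1039, 138 cells) against 202 CPM (190 to 214, 734 cells), a log2 ratio of 2.25 (2.10 to 2.39). There 7 of 8 members tested passed 2-fold upward, where 7.98% of the 9666 genes tested did, and none was lower, against 18.7%. The median was 2.78 for the members and -0.21 for all genes tested. Of the 11 genes that mark RNA from other cells, which include macrophage genes, 2 were higher and 3 lower in T11-Apobec macrophages and 1 higher and 8 lower in those of KPB25Luv. Of 8 quality and handling genes tested in T11-Apobec macrophages none was higher and 3 were lower. These were Fos at log2 -1.52, Hspa1a at -2.55 and Hspa1b at -2.00. Of 7 tested in KPB25Luv macrophages 1, B2m at log2 1.65, was higher and none lower. The part of these in the members' ratios was not tested.

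The member that led differed between the models. In T11-Apobec macrophages Gbp2b went from 19.1 to 212 CPM (log2 3.47, 3.25 to 3.69) and Gbp2 from 14.6 to 114 CPM (log2 2.96, 2.71 to 3.23). In KPB25Luv macrophages Gbp2 went from 46.1 to 429 CPM (log2 3.22, 2.96 to 3.48), while Gbp2b reached only 15.3 CPM from 4.58 (9 and 24 UMIs). Gbp2b thus gave 31.4% of the family's UMIs in treated T11-Apobec macrophages and 1.60% in treated KPB25Luv macrophages, and Gbp2 gave 16.9% and 44.8%. Strain, tumour line and library change together between the models and cannot be told apart.

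Gbp5 was higher in both, at 14.4 against 1.93 CPM in T11-Apobec (log2 2.88, 2.20 to 3.68) and 49.3 against 2.48 CPM in KPB25Luv (log2 4.29, 3.33 to 5.38). The treated KPB25Luv macrophages were the class with the highest Gbp5 level among the 29 profiles of at least 50 cells, and its interval overlapped that of treated KPB25Luv NK cells, with 3 UMIs, but not that of treated T11-Apobec macrophages. Gbp4 stood at 107 against 11.8 CPM (log2 3.18) and at 91.9 against 6.29 CPM (log2 3.86). Gbp8 stood at 30.1 against 9.16 CPM (log2 1.71) in T11-Apobec and at 40.8 against 3.05 CPM (log2 3.73) in KPB25Luv. Gbp3 and Gbp9 had log2 ratios of 1.31 and 1.29 in T11-Apobec and of 1.36 and 2.34 in KPB25Luv.

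Gbp7 was the member with the smallest macrophage ratio in KPB25Luv. It stood at 143 against 82.9 CPM there, a log2 ratio of 0.79 (0.43 to 1.13) that did not reach 2-fold, and at 115 against 42.2 CPM in T11-Apobec (log2 1.44, 1.27 to 1.61). Without therapy it was the leading member of macrophages in both models, with 41.1% of the family's UMIs in KPB25Luv and 32.2% in T11-Apobec. Gbp6 had 21 and 3 UMIs in T11-Apobec (log2 3.28, 1.72 to 5.85) and none in either KPB25Luv library, where a count of 0 allows up to 5.11 CPM after therapy and 0.572 CPM without it.

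**Figure D2:**
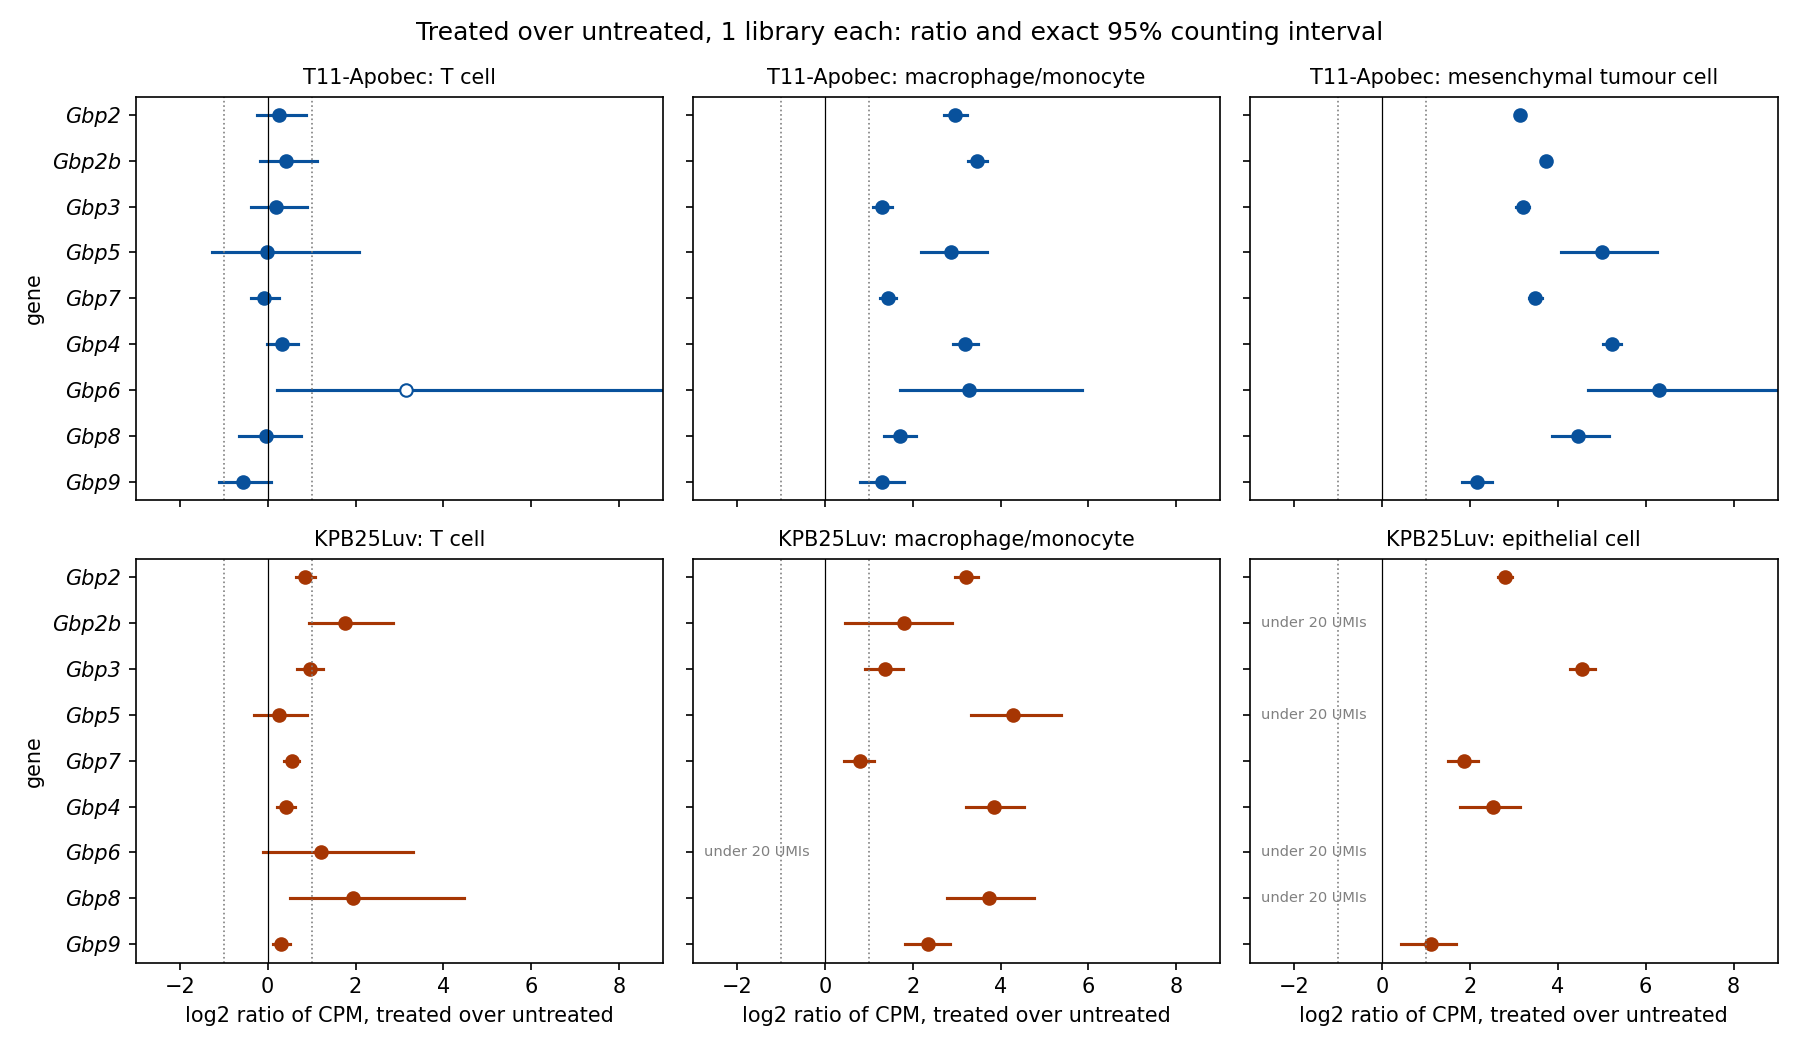
Log2 ratio of CPM, treated over untreated, for each member in 6 classes, with exact 95% counting intervals drawn as lines (cut at the axis ends), dotted lines at 2-fold, and an open circle where the untreated library had no UMI. All members shown in T11-Apobec macrophages and tumour cells lie right of the 2-fold line, and those of T11-Apobec T cells lie around 0 except Gbp6.

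The macrophage class changed in make-up as well. Its C1q genes, which mark mature tissue macrophages, summed to 2704 CPM after therapy against 9942 CPM without it in KPB25Luv, and to 16688 against 17549 CPM in T11-Apobec. Within T11-Apobec cells with at least 10 C1q UMIs per 10000, the summed members stood at 644 against 132 CPM (log2 2.28, 2.19 to 2.37). Within cells below that level they stood at 1050 against 89.9 CPM (log2 3.52). In KPB25Luv cells below it they stood at 1081 against 158 CPM (log2 2.77, 2.56 to 2.99). The members were thus higher after therapy on both sides of this C1q level in T11-Apobec and below it in KPB25Luv, where the treated cells above it were too few. This split was chosen after the data were seen. Depth moved in opposite directions, with a median of 9026 UMIs per treated and 3893 per untreated macrophage in T11-Apobec but 4026 and 7222 in KPB25Luv. At 1000 UMIs per cell, 6.70% of treated and 0.324% of untreated T11-Apobec macrophages had at least 3 member UMIs, and 8.77% and 0.453% of those in KPB25Luv.

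T cells carried the members without therapy too, and neither model's summed ratio reached 2-fold. Median depth per T cell was 3523 UMIs treated and 1517 untreated in T11-Apobec. In T11-Apobec the sum stood at 422 CPM (410 to 433) against 382 CPM (339 to 429), a log2 ratio of 0.14 (-0.03 to 0.32). Of 9 members tested, 1 was called higher, Gbp6, where 5.92% of the 10502 genes tested were, and none was lower, against 6.62%. The Gbp6 call rests on 76 UMIs against 0 among 406 untreated T cells. Its log2 ratio was 3.15, with an interval that starts at 0.22, short of 2-fold, and has no upper end. With the untreated count of 0 set at its bound of 3 counts, the ratio of the CPM values was 1.47-fold. The median log2 ratio was 0.20 for the members and -0.07 for all genes. In KPB25Luv the sum stood at 342 CPM (334 to 349) against 226 CPM (213 to 239), a log2 ratio of 0.60 (0.51 to 0.69). There Gbp2b, Gbp6 and Gbp8, 3 of 9 members tested, were called higher, where 5.39% of the 11431 genes tested were, and none was lower, against 8.42%. The median was 0.85 beside 0.06 for all genes. These 3 were the scarcest members in the untreated KPB25Luv T cells, with 11, 4 and 3 UMIs. Their log2 ratios were 1.76 (0.94 to 2.85), 1.21 (-0.11 to 3.30) and 1.93 (0.52 to 4.47). The Gbp6 interval holds 0, and those of Gbp2b and Gbp8 reach below 2-fold.

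The members with the highest CPM in treated T cells were Gbp7 and Gbp4 in T11-Apobec and Gbp7, Gbp2 and Gbp9 in KPB25Luv. Gbp7 stood at 113 against 118 CPM in T11-Apobec (log2 -0.07, -0.38 to 0.26) and at 97.7 against 67.0 CPM in KPB25Luv (log2 0.54, 0.38 to 0.71). Gbp4 stood at 122 against 96.8 CPM (log2 0.32, -0.01 to 0.69) and at 55.1 against 41.5 CPM (log2 0.41, 0.20 to 0.62). Neither gene reached 2-fold in either model. Gbp2 stood at 47.7 against 39.0 CPM (log2 0.27) in T11-Apobec and at 65.3 against 36.0 CPM (log2 0.85, 0.64 to 1.08) in KPB25Luv. Gbp3 stood at 36.3 against 30.9 CPM (log2 0.20) and at 41.3 against 21.2 CPM (log2 0.96, 0.68 to 1.26).

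Subsets of T cells, split by Cd8a, Cd8b1, Cd4 and Foxp3 UMIs after the data were seen, gave these values. CD8 T cells stood at 427 against 417 summed CPM in T11-Apobec (log2 0.03, -0.24 to 0.31) and at 269 against 191 CPM in KPB25Luv (log2 0.49, 0.37 to 0.62). KPB25Luv CD4 T cells without Foxp3 stood at 287 against 186 CPM (log2 0.61). KPB25Luv Foxp3-positive T cells, the regulatory lineage, stood at 721 against 392 CPM (log2 0.87, 0.61 to 1.15), above the other subsets in both libraries. Gbp2 alone stood at 116 against 46.0 CPM in the Foxp3-positive cells, a log2 ratio of 1.30 (0.58 to 2.21). The untreated KPB25Luv T cells also held Krt8 and Krt18 at 373 CPM and C1q at 113 CPM, against 5.21 and 0.891 CPM in the treated T cells. Igkc went the other way, at 13.1 CPM in the untreated and 191 CPM in the treated T cells. RNA of other cells was thus present in both libraries. Scaled by C1q, the macrophages' member RNA carried into the untreated T cells would come to 2.29 CPM of the 226 CPM seen in them. Scaled by Krt8 and Krt18, that of the epithelial cells would come to 5.86 CPM.

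NK cells could be compared in T11-Apobec alone, with 275 treated and 280 untreated cells. The sum stood at 399 against 238 CPM (log2 0.75, 0.47 to 1.03), and none of 7 members tested was called higher or lower, where 6.15% and 4.34% of the 5972 genes tested were. Gbp7 stood at 115 against 81.2 CPM and Gbp4 at 111 against 58.4 CPM. These were the most abundant members of NK cells in both libraries.

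B cells carried the members at a lower level than T cells in each library. The sum stood at 139 against 193 CPM in T11-Apobec (log2 -0.49, -1.06 to 0.18) and at 137 against 128 CPM in KPB25Luv (log2 0.09, -0.36 to 0.59). Of 6 members tested in T11-Apobec none was higher and Gbp9 was called lower on 19 and 4 UMIs, where 9.94% of the 6064 genes tested were higher and 7.95% lower. The interval of its log2 ratio, -1.30 (-2.76 to 0.85), holds 0. Of 5 members tested in KPB25Luv none was called in either direction, where 9.48% of the 7363 genes tested were higher and 6.46% lower. Plasma cells stood at 40.5 CPM in the 58 treated KPB25Luv plasma cells.

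**Figure D3:**
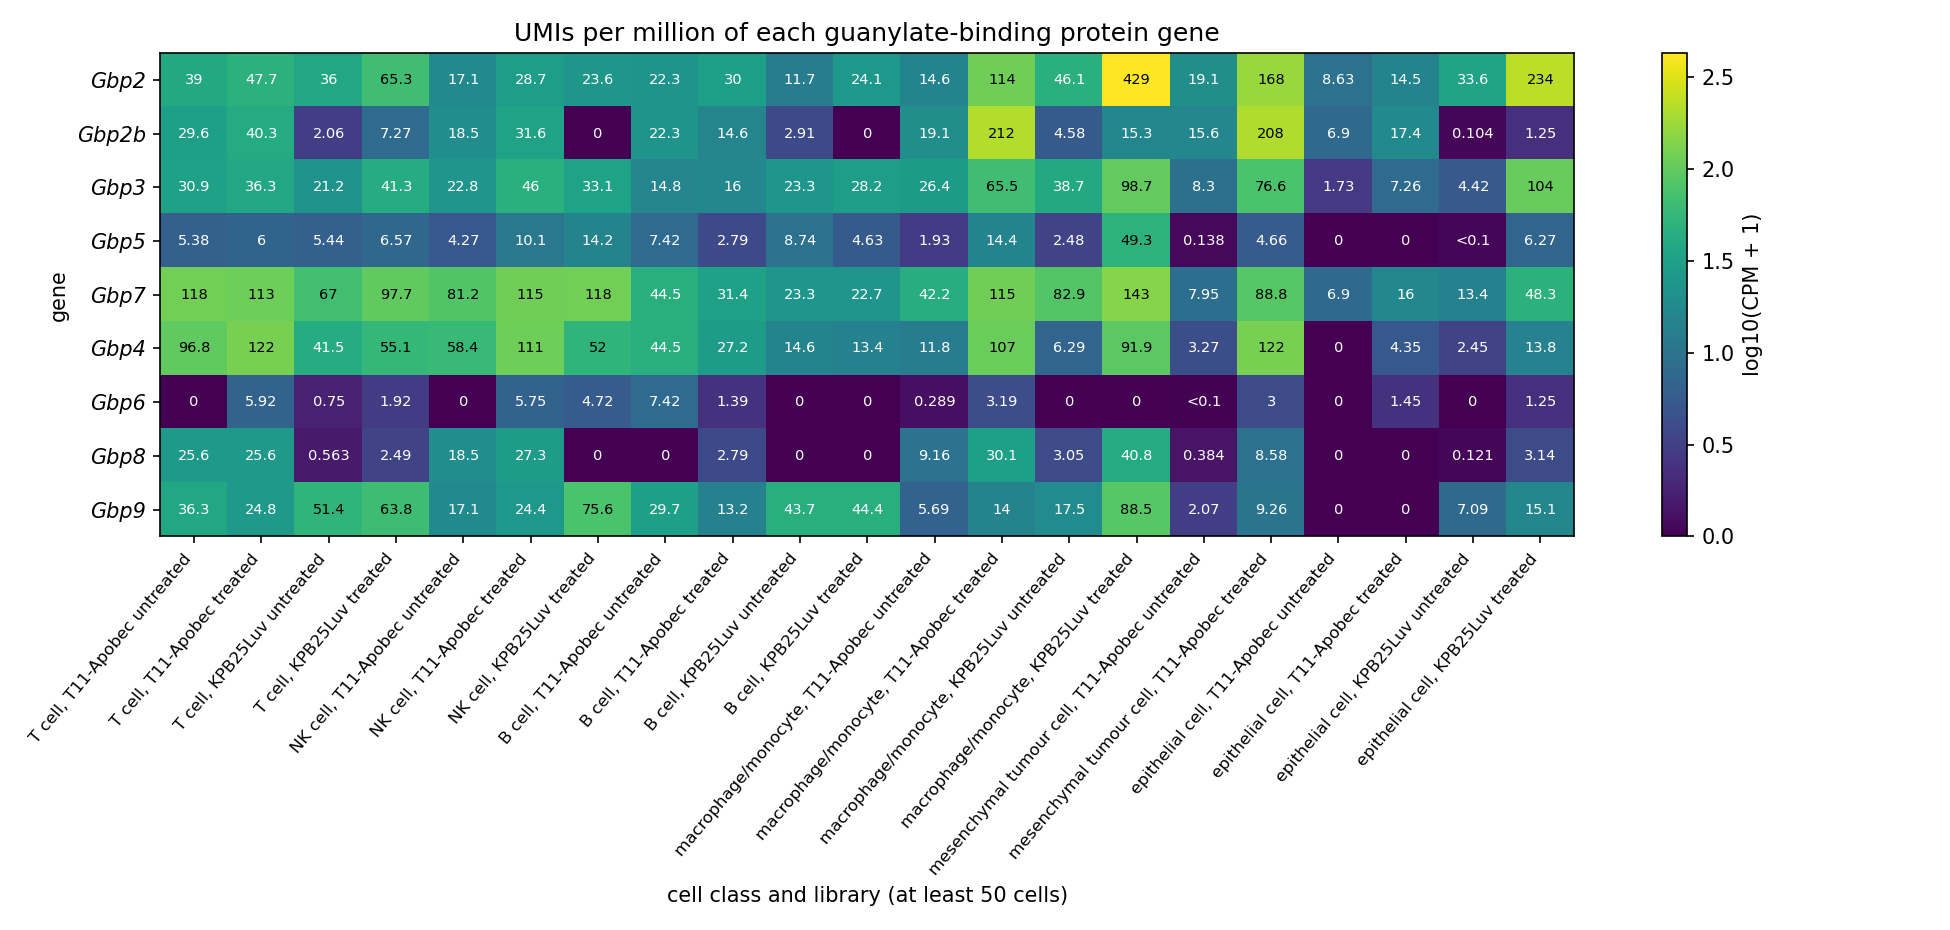
CPM of each member (rows) in the lymphocyte, macrophage, tumour and epithelial classes of each library with at least 50 cells (columns), coloured by log10(CPM + 1) with the value printed. Gbp2 is highest in treated KPB25Luv macrophages at 429 CPM, and the Gbp2b row reaches at most 15.3 CPM in the KPB25Luv columns.

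Several classes had under 50 cells in the treated libraries, and their values are given without a ratio. Treated KPB25Luv neutrophils, 29 cells, stood at 5368 summed CPM (4482 to 6378, 129 UMIs) beside 161 CPM (131 to 195) in 610 untreated ones. Gbp2 alone made up 3995 CPM (3236 to 4878, 96 UMIs) of that, beside 86.0 CPM untreated. Treated T11-Apobec neutrophils, 40 cells, stood at 1183 CPM (881 to 1556, 51 UMIs) beside 102 CPM (55.5 to 170) in 166 untreated ones, with Gbp2b at 487 CPM and Gbp2 at 371 CPM. In treated KPB25Luv neutrophils Gbp2b had only 2 UMIs. Treated KPB25Luv endothelial cells, only 8, stood at 1976 CPM (1689 to 2297), beside 195 CPM (166 to 229) in 78 untreated ones. KPB25Luv conventional dendritic cells, 34 treated and 36 untreated, stood at 608 CPM (498 to 734) and 493 CPM (412 to 586), and so were high in both libraries with overlapping intervals. They held Gbp8 at 84.4 and 91.8 CPM, although Gbp8 was at 2.49 CPM or less in KPB25Luv T cells.

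The order of the classes is given for those with at least 50 cells in a library. It follows the CPM, and where intervals overlap the order is not resolved. In untreated T11-Apobec, T cells led at 382 CPM, followed by NK cells at 238 CPM (203 to 277), endothelial cells at 214 CPM (194 to 237) and B cells at 193 CPM (126 to 283), whose intervals overlap. Macrophages at 131 CPM, pericytes at 118 CPM, neutrophils at 102 CPM and tumour cells at 56.9 CPM came next. The intervals of macrophages and of neutrophils overlap that of B cells. Fibroblasts at 34.0 CPM and epithelial cells at 24.2 CPM came last. In treated T11-Apobec, tumour cells at 689 CPM and macrophages at 674 CPM led with overlapping intervals, and T cells followed at 422 CPM. Below them were NK cells at 399 CPM, B cells at 139 CPM, plasmacytoid dendritic cells at 70.4 CPM and epithelial cells at 60.9 CPM. In untreated KPB25Luv, T cells came first at 226 CPM (213 to 239). Macrophages at 202 CPM (190 to 214) and endothelial cells at 195 CPM (166 to 229) followed. Neutrophils at 161 CPM and B cells at 128 CPM came next, and the neutrophil interval overlaps those of macrophages and endothelial cells. Epithelial cells were lowest at 61.3 CPM. After therapy KPB25Luv macrophages led the classes of at least 50 cells at 956 CPM, above epithelial cells at 427 CPM, T cells at 342 CPM and NK cells at 321 CPM (249 to 407). The interval of these NK cells overlaps those of epithelial and T cells. B cells at 137 CPM and plasma cells at 40.5 CPM lay below.

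The share of single members in the family's UMIs differed between the models, without a test. Gbp2b stood at 40.3 and 29.6 CPM in treated and untreated T11-Apobec T cells and at 7.27 and 2.06 CPM in those of KPB25Luv. In B cells it stood at 14.6 and 22.3 CPM in T11-Apobec, and no UMI was seen among the 619 treated KPB25Luv B cells, which allows up to 1.39 CPM. Gbp2b was thus low in the KPB25Luv host lymphocytes as well as in the KPB25Luv epithelial cells, which held 1.25 and 0.104 CPM. Gbp8 stood at 25.6 CPM in T cells of both T11-Apobec libraries and at 2.49 and 0.563 CPM in those of KPB25Luv. Gbp9 went the other way, at 24.8 and 36.3 CPM in T11-Apobec and 63.8 and 51.4 CPM in KPB25Luv T cells. The annotated spans of Gbp8 and Gbp9 overlap, while the last 500 bases of their transcripts shared no 90-base stretch. Over all cells of a library, Gbp2b gave 25.4% and 22.1% of the family's UMIs in treated and untreated T11-Apobec and 1.77% and 0.675% in KPB25Luv.

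**Figure D4:**
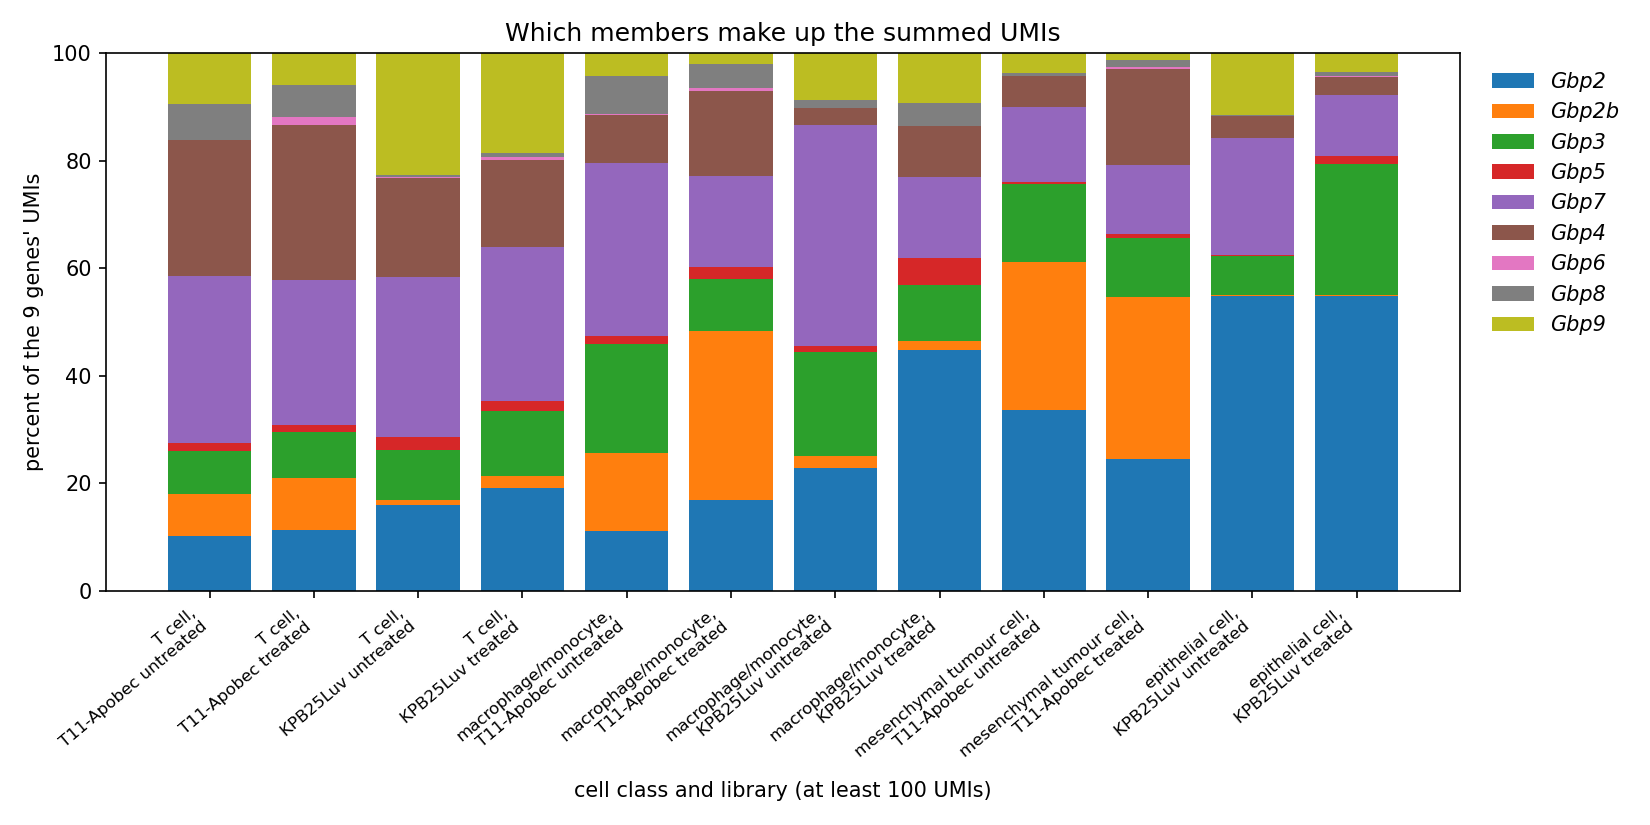
Percent of the 9 genes' UMIs that each member contributes, in the T cell, macrophage, mesenchymal tumour and KPB25Luv epithelial classes. The Gbp2b segment is visible in the T11-Apobec bars and at most 2.27% in the KPB25Luv ones, where Gbp2 or Gbp7 is the largest segment.

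The genes outside the family whose class pattern was most like the summed members were found over 29 profiles of at least 50 cells, by Pearson r of log2(CPM + 1) among 14655 genes. Among the first 5 were Igtp (r = 0.83), an immunity-related GTPase also called Irgm3, Ifi47 (0.80), a GTPase gene, Herc6 (0.76), a ubiquitin ligase gene, and Tgtp1 (0.76), another GTPase gene. Igtp, Ifi47 and Herc6 were also among the first 5 by Spearman rho. Profiles share libraries, so these are descriptions. Among the members themselves r ranged from -0.12 for Gbp2b with Gbp9 to 0.80 for Gbp3 with Gbp5.

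Related gene lists moved with the members in part. The immunity-related GTPases were higher for 8 of 8 genes tested in T11-Apobec tumour cells (median log2 4.35), 7 of 7 in T11-Apobec macrophages (2.09), 6 of 6 in KPB25Luv macrophages (3.57) and 6 of 6 in KPB25Luv epithelial cells (5.95). Iigp1, which coats parasite vacuoles, stood at 454 against 21.6 CPM in T11-Apobec tumour cells and at 284 against 1.72 CPM in KPB25Luv macrophages. In T cells 5 of 7 were higher in KPB25Luv, and in T11-Apobec 1 of 8 was higher and 1 lower. In T11-Apobec epithelial cells none of 2 tested was higher (median -0.37).

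Genes mainly of the type I interferon response had different counts in the models, and that difference was not tested. In T11-Apobec macrophages none of 11 was higher and 1, Rsad2, was lower (median log2 0.07), while in KPB25Luv macrophages 9 of 10 were higher (3.93). In tumour cells 3 of 9 were higher in T11-Apobec (0.69), and 9 of 9 in KPB25Luv epithelial cells (3.95). Isg15, a ubiquitin-like interferon product, stood at 92.8 against 60.7 CPM in T11-Apobec macrophages (log2 0.61) and at 773 against 44.6 CPM in KPB25Luv macrophages (log2 4.11). In T cells 5 of 8 were lower in T11-Apobec (median -1.06) and 1 of 9 was higher in KPB25Luv (0.64). In KPB25Luv B cells 4 of 4 tested were lower (median -2.32), Ifit3 at log2 -3.82 and Isg15 at -2.38. In T11-Apobec macrophages all 9 members thus passed 2-fold upward, and no gene of the type I list did. Short of 2-fold, Isg15, Oas1a and Irf7 of that list had intervals above 0, and that of Ifit3 lay below 0. What raised the members was not tested.

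**Figure D5:**
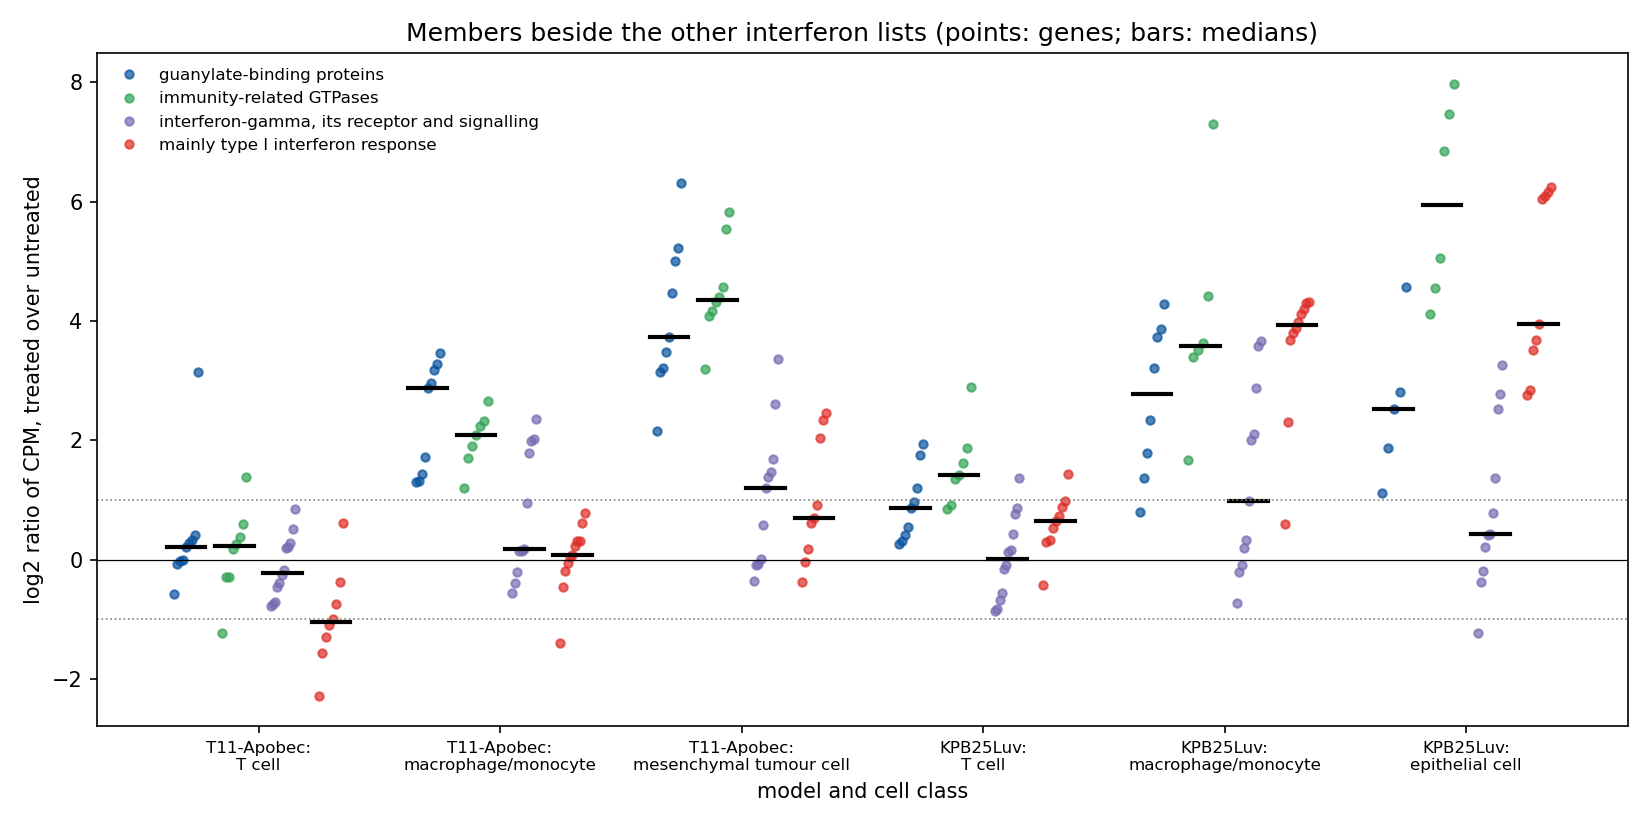
Log2 ratio of CPM, treated over untreated, for each tested gene of the members and of 3 interferon lists, in 6 classes, with black bars at the medians and dotted lines at 2-fold. In T11-Apobec macrophages the members have a median of 2.88 and the type I interferon list 0.07, and in KPB25Luv macrophages 2.78 and 3.93.

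Upstream of the members, Ifng, the gene of interferon gamma, was seen in T and NK cells. T cells held it at 106 CPM treated and 92.8 CPM untreated in T11-Apobec, and at 39.4 and 15.2 CPM in KPB25Luv (log2 1.36). Of the list of interferon gamma, its receptor and signalling, 4 of 11 genes tested were higher in T11-Apobec macrophages, 6 of 11 in T11-Apobec tumour cells, 5 of 11 in KPB25Luv macrophages, and 4 of 11 with 1 lower in KPB25Luv epithelial cells. Irf1, a transcription factor of the pathway, went from 31.4 to 86.5 CPM in T11-Apobec tumour cells (log2 1.46) and from 36.6 to 146 CPM in KPB25Luv macrophages (log2 2.00).

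Partners of the proteins were read from 3 lists. Of the inflammasome and pyroptosis genes, 1 of 10 tested was higher and 1 lower in T11-Apobec macrophages, and 4 of 10 were higher in KPB25Luv macrophages, Casp1 and Il18 among them. Casp1, the inflammasome protease, stood at 95.3 against 38.7 CPM in KPB25Luv macrophages (log2 1.31) and at 71.2 against 44.4 CPM in T11-Apobec macrophages (log2 0.68). In tumour cells 2 of 7 were higher in T11-Apobec and 5 of 9, with 1 lower, in KPB25Luv epithelial cells, where Il18, a cytokine the protease matures, had a log2 ratio of 4.70. No gene of the enzymes that add and trim the lipid tail was higher in any of the compared classes, and 1 of 4 tested was lower in T11-Apobec B cells. None of the autophagy conjugation genes was higher either, and 2 were lower in T11-Apobec B cells, 2 in KPB25Luv T cells and 1 in KPB25Luv macrophages. Gbp10, another gene of the family on chromosome 5, had a log2 ratio of 1.88 in KPB25Luv T cells, but all of its 3′ 90-base stretches (100%) also occurred in Gbp6 or another gene, so its UMIs cannot be assigned to it.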

How the data were processed

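The authors deposited 4 matrices of raw UMI counts per gene and cell barcode, made with Cell Ranger 3.0.2 per the file headers, on mm10 per the submitters' processing notes. Libraries were made with a 3′ single-cell kit, per the labels' protocols, and 1 library stood for each of the 4 groups, and no test over samples was made. The genes and gene lists were chosen with earlier results of these data known. Cells with at least 200 detected genes and at most 10% mitochondrial UMIs were kept, and the cells with the highest Scrublet scores (scanpy 1.11.5) were removed at 0.8% per 1000 barcodes, because Scrublet's own threshold marked between 0 and 359 cells a library. Classes were set by at least 3 marker UMIs and a minimum rate per 10000 UMIs. The rates were set after marker counts were viewed, and cells that passed the gates of more than 1 class or of none were left out. UMIs were summed per class. Log2 ratios had 0.5 added to each count, with exact conditional intervals (scipy 1.17.1). Ratios were tested on simulated counts. A count of 0 was bounded at 3 counts. Named genes were all members, and in each list those that describe its call. Alternatives covered the cell filters, scaling, low-count filter, fold, thinning and gates, and the subsets and the depth of 10000 UMIs were added after the data were seen. 1 gene among those most like the members is not reported here.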

Additional observations from a re-analysis of the deposited data

Results flagged for a closer look

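Rsad2, Ifit1, Gm4951 and Isg15, genes of the interferon lists and not members, passed 2-fold in opposite directions in the models, and the difference between the models was not tested. Rsad2, an antiviral gene of the interferon response, had a log2 ratio of -1.40 (-2.02 to -0.85, 32 treated and 135 untreated UMIs) in T11-Apobec macrophages and of 3.88 (2.92 to 4.92, 25 and 15 UMIs) in those of KPB25Luv. Ifit1, another gene of that response, had -1.57 (212 and 36 UMIs) in T11-Apobec T cells and 1.43 (437 and 40 UMIs) in KPB25Luv T cells. Gm4951, a gene of the immunity-related GTPase list, had -1.23 (-2.45 to 0.59, 40 and 5 UMIs) and 2.89 (0.91 to 8.80, 44 and 1 UMIs) in the same T cells. Isg15 had a fitted ratio of 2.65 in T11-Apobec B cells, on 33 treated and 0 untreated UMIs with an interval that starts at -0.33 and has no upper end, and -2.38 (40 and 33 UMIs) in KPB25Luv B cells. No member was called in opposite directions in the same class of the models.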

How the results depend on the processing

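Of 235 alternative values of the 40 log2 ratios that passed 2-fold, 234 kept their direction and 229 still passed 2-fold. The exception in direction was the members' sum in T11-Apobec epithelial cells, at -1.11 with cells thinned to 1000 UMIs against 1.30. Of 174 counts of called members, 156 stayed within 1.5 times the value reported. The shares of all genes called under these alternatives are not given here. The counts that follow therefore stand without a background and are not read as results about the members. With thinning, which leaves fewer genes past the filter, the members called higher numbered 5 in T11-Apobec tumour cells, 1 in KPB25Luv T cells, 4 in KPB25Luv macrophages and 3 in KPB25Luv epithelial cells. With at least 50 UMIs per gene they numbered 4 in KPB25Luv macrophages, and 0 were lower in T11-Apobec B cells. Without a filter on low counts they numbered 2 higher in T11-Apobec NK cells, 5 higher in T11-Apobec epithelial cells, 9 higher in KPB25Luv epithelial cells, 3 lower in T11-Apobec B cells and 2 lower in KPB25Luv B cells. A call at 1.5-fold gave 4 higher in T11-Apobec NK cells, 5 in KPB25Luv T cells and 1 in KPB25Luv B cells, and 4 lower in T11-Apobec B cells. In T11-Apobec B cells 3 were lower among cells with at least 500 genes, and a stricter marker gate gave 1 higher and 2 lower; the cause was not tested. Of 58 shares of cells with a member UMI, 47 moved with depth. No paired analysis was possible because each group is 1 library and the groups share fewer than 2 replicate numbers. A joint model of therapy over both tumour lines was not run. The spread between animals was not measured.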
